A study of Mus musculus with 2 samples.

Results

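Mir375 is a single gene among the 2202 annotated mouse miRNA genes of these tables, taken as the row whose identifier carries that symbol in GENCODE M21. It was followed in both small RNA libraries of the series, which were made from total RNA of the adrenal gland. The donors were female B6CASTF1/J mice of 18 to 20 months, first-generation hybrids of the C57BL/6J and CAST/EiJ strains. The labels give 1 group with 2 biological replicates, both under the same donor record, and no treatment, transgene or second tissue. The spread between replicates therefore measures these samples alone and may be technical, and no condition was compared.

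A miRNA is a short RNA, cut from a hairpin precursor, that guides Argonaute proteins to messenger RNAs through its seed, bases 2 to 8, and lowers their output. miR-375 is best known from the pancreatic islet, where it restrains insulin secretion and is needed for a normal mass of endocrine cells. It is also made in the pituitary, in enteroendocrine and other epithelial cells and in the chromaffin cells of the adrenal medulla, where in the rat it has been described as a brake on catecholamine production. The adrenal gland joins this medulla, which is of neural crest origin, to a cortex that makes steroid hormones. The tables hold miRNA genes alone, so messenger RNA markers of medulla and cortex could not be checked. In a whole gland, fewer cells of a type and less of an RNA per cell cannot be told apart.

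The Mir375 hairpin (ENSMUSG00000065616.3) is 64 bases long and lies on the minus strand of chromosome 1, at 74900658 to 74900721 on mm10. The sequences below are RefSeq's, on the same build (GRCm38.p6), written 5′ to 3′ with the seed in capitals. The mature RNAs named for Mir375 are mmu-miR-375-5p and mmu-miR-375-3p. The counts belong to the hairpin gene and do not tell its arms apart. The seed and base composition given for a mature RNA of Mir375 are those of the 5p arm alone, whereas most known functions of miR-375 belong to the 3p arm, which has another seed. The first sequence is the 5p arm of Mir375. The others are arms of the next islet and neuroendocrine miRNAs described below, shown because shared sequence decides which gene a read can be assigned to.
miR-375-5p: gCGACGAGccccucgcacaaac
miR-7a-5p: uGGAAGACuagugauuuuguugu
miR-7b-5p: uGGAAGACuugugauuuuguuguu
miR-132-3p: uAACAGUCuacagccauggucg
miR-212-3p: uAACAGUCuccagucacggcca
miR-182-5p: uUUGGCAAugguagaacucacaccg
miR-96-5p: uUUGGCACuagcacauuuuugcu
miR-183-5p: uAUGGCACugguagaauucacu
miR-137-3p: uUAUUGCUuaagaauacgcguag
miR-9-5p: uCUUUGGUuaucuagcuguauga

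Reads of Mir375 can be told from those of other measured miRNA genes by sequence, as for most genes here. It shared no 18 bases of hairpin with a non-overlapping miRNA gene, which was also true of 274 of the 367 genes tested below, among them Mir139, Mir126a and Mir137. The longest stretch that its hairpin shared with another, on either strand, was 10 bases, and that stretch was in Mir208b. A seed alone does not assign a read to a gene, and that of the 3p arm of Mir375 was not compared. None of the other mature sequences in the table, which holds 1674 distinct ones, had the seed of miR-375-5p. The seeds of miR-137-3p, miR-182-5p and miR-183-5p were likewise each found in a single mature sequence. In contrast, miR-7a-5p is encoded by both Mir7-1 and Mir7-2, and miR-7b-5p shares its seed and differs from it by A10U, counted from the 5′ end, and by 1 further base at the 3′ end. The arms of Mir132 and Mir212 shown here also share a seed, and miR-9-5p is encoded at 3 loci. Reads that align to several places are left out of the deposited gene counts. Mir7-1, Mir7-2, the Mir9 genes, the Mir124a genes, Mir129-1 and Mir129-2 share 18 bases with other miRNA genes, so their counts can be too low. How many reads were lost in this way was not tested.

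Mir375 was rich in G and C, and in the dinucleotide CG. The hairpin held 67.2% G+C against a median of 50.8% over the 2202 hairpins, and 10 CG dinucleotides against a median of 1. Only 75 of the 2202 hairpins (3.41%) held as many. Among the 25 most abundant miRNA genes it was the single one with at least 10, where the median was 2. In miR-375-5p, 68.2% of bases were G or C and there were 3 CG dinucleotides. Of the distinct mature sequences, 2.99% had as many and 66.5% had none.

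Mir375 lies between protein-coding genes, and none of them contains it. Cfap65, a gene of cilia and flagella on the same strand, lies 1350 bases above it in coordinate, with the noncoding antisense gene Gm15841 at 1650 bases on the plus strand. On the lower side, Cryba2, a beta crystallin gene, lies 7515 bases away. It is followed by Fev, a transcription factor gene of serotonin neurons, at 15239 bases. Ihh, which encodes a hedgehog ligand, and Cdk5r2, an activator of the kinase Cdk5, lie 44594 and 42926 bases away. The expression of these genes was not measured.

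**Figure D1:**
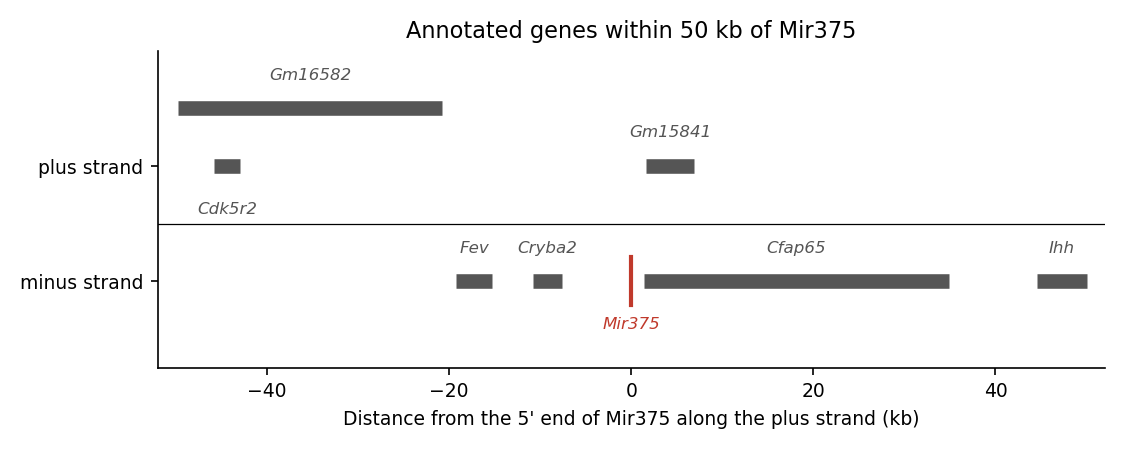
Annotated genes (GENCODE M21) within 50 kb of Mir375, drawn to scale by strand against distance from the 5′ end of the hairpin in kb; the red mark is Mir375. No annotated gene covers the hairpin, and the nearest, Cfap65, is 1350 bases away.

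Mir375 was one of the most abundant miRNAs of these adrenal glands, at 161731 counts in replicate 1 and 123808 in replicate 2. Of all counts assigned to miRNA genes on their own strand (2590051 and 2291030), it took 6.24% in replicate 1 and 5.40% in replicate 2. Reads that align to several places (2357429 and 1958627) are outside these totals. Genes that share sequence, such as Mirlet7a-1 with 1213 and 1075 counts, can thus be counted too low. The share and rank of Mir375 can then be too high, and by how much was not tested. The Wilson 95% intervals ran from 6.21% to 6.27% and from 5.37% to 5.43%. They cover counting error only and do not overlap. About 1 counted read in 16.0 of replicate 1 and 1 in 18.5 of replicate 2 came from this gene. A gene with any count had a median of 18 and 23.5 counts in the respective library. Mir375 thus stood 8985-fold and 5268-fold above the median of genes with at least 1 count.

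Its mean share was 5.82% ± 0.594 (SD, n = 2), a coefficient of variation of 10.2%. By count it held rank 4 in replicate 1 and rank 3 in replicate 2. No length scaling was applied, because a read of this assay spans a whole mature miRNA. Measured against every read of the table, including unmapped ones, Mir375 made up 1.65% of replicate 1 and 1.77% of replicate 2. On that scale the order of the libraries was the reverse of that by share of miRNA counts. Unmapped reads were 40.6% of replicate 1 and 29.8% of replicate 2, and their part in this was not tested.

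**Figure D2:**
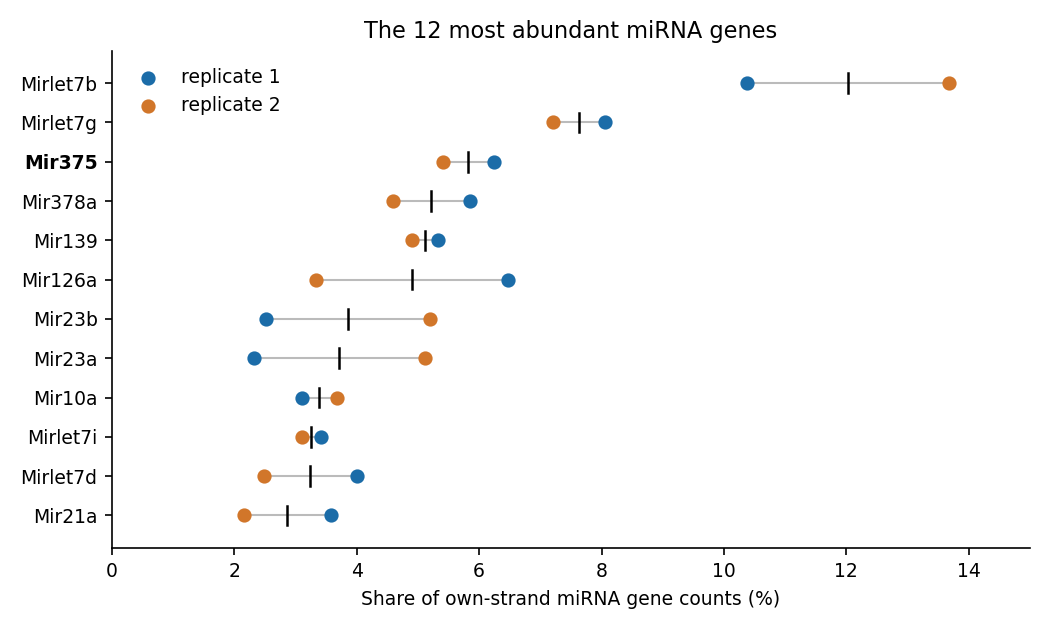
Share of own-strand miRNA gene counts (%) of the 12 genes with the highest mean, with 1 point per library and a black bar at the mean of both. Mir375, at rank 3 by mean, lies at 6.24% and 5.40%. Its spread is narrower than those of Mirlet7b, Mir126a, Mir23b and Mir23a and wider than those of Mir139, Mir10a and Mirlet7i.

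The genes directly around Mir375 in rank were Mir126a and Mir378a in replicate 1 and Mirlet7g and Mir23b in replicate 2. Mir126a, the endothelial miRNA of the Egfl7 gene, held 6.48% of replicate 1, and Mir378a, encoded in the metabolic coactivator gene Ppargc1b, held 5.84%. In replicate 2, Mirlet7g held 7.21% and Mir23b 5.19%. Of the other 11 genes among the 12 most abundant, 10 stood on the same side of Mir375 in both libraries. The exception was Mir126a, which was above it in replicate 1 and below it in replicate 2, where it held 3.34%.

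The order was firm against some of these genes and not against others. Mirlet7b, at 10.4% and 13.7%, and Mirlet7g, at 8.05% and 7.21%, were above both values of Mir375. The values of Mir378a (5.84% and 4.59%) and Mir126a overlapped those of Mir375, and those of the remaining 9 did not. The gap between the mean of Mir375 and that of the other gene was larger than the sum of their SDs for 6 of the 11, namely Mirlet7b, Mirlet7g, Mir10a, Mirlet7i, Mirlet7d and Mir21a. For Mir139, Mir378a, Mir126a, Mir23a and Mir23b it was smaller, so by this measure Mir375 and these genes were not separated. The measure ignores that shares are paired within a library. All of these genes but Mir126a were below Mir375 in both libraries.

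The strand of the reads was that of the gene. The counts of Mir375 were 161731 and 123808 also with strand ignored, and 0 in both libraries on the opposite strand. A count of 0 allows up to 3 reads, or 0.00185% of the own-strand counts in replicate 1 and 0.00242% in replicate 2. Absence of opposite-strand reads was common among abundant genes. Of the genes with at least 10000 counts, 33 of 37 in replicate 1 and 33 of 36 in replicate 2 had none.

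**Figure D3:**
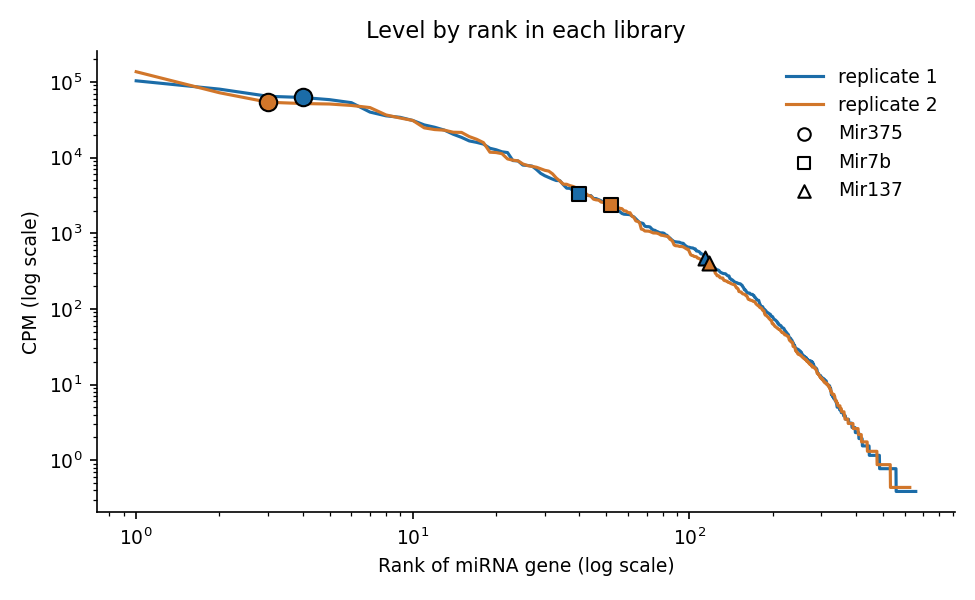
Level in counts per 1000000 own-strand counts (CPM, log scale) against rank (log scale) for all miRNA genes with a count, with 1 line per library. Mir375 (circles) sits on the flat top of both curves at ranks 4 and 3, Mir7b (squares) at ranks 40 and 52 and Mir137 (triangles) at ranks 114 and 118.

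Between the libraries, Mir375 was slightly higher in replicate 1. The log2 ratio of replicate 2 over replicate 1 was -0.17 (exact conditional 95% interval -0.18 to -0.16), a 1.13-fold difference, with an adjusted p of 3.0e-216 in the exact conditional binomial test. That test compares these 2 libraries with counting error as its only spread, and with counts this large it detects very small differences. It called 62.7% of the 367 genes tested, and 32.4% of them as higher in replicate 1. All 12 of the most abundant genes passed it, 8 of them higher in replicate 1. The call on Mir375 is therefore shared with most genes.

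By size, the difference of Mir375 was small. Its absolute log2 ratio of 0.17 compares with a median of 0.46 over all genes tested, and 76 of the 367 (20.7%) had a smaller one. Among the 25 most abundant genes, which are closer to it in level, the median was 0.35 and 7 had a smaller one. Among the 12 most abundant genes, the 3 with a smaller one were Mirlet7g, Mir139 and Mirlet7i, and the largest was that of Mir23a at 1.18. The median log2 ratio over all genes tested was 0.01.

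**Figure D4:**
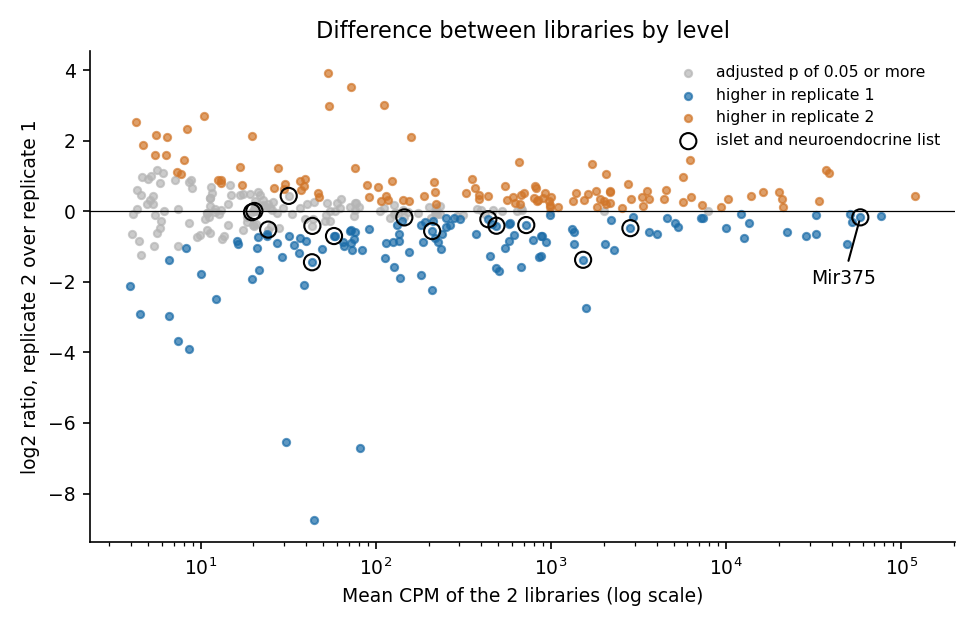
The log2 ratio of replicate 2 over replicate 1 against mean CPM (log scale) for the 367 miRNA genes tested, coloured by call, with the islet and neuroendocrine list ringed; ratios of genes with few or no counts in a library depend on the prior count. Mir375 lies near 0, at -0.17, at the high end of the level axis.

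The miRNA genes whose level was most like that of Mir375 over the 2 libraries were Mir378a and Mir139. Likeness was the distance between log2 CPM values, over 2 libraries only, and says nothing of shared control. It was 0.25 for Mir378a, 0.27 for Mir139, 0.55 for Mirlet7g, 0.70 for Mir126a, 1.15 for Mir10a and 1.18 for Mirlet7i. Ratios of counts within a library need no scaling between libraries. Mir375 had 1.17 counts for each count of Mir139 in replicate 1 and 1.10 in replicate 2. For Mirlet7g these ratios were 0.775 and 0.749, and for Mir378a 1.07 and 1.18. They differed more for Mir126a, at 0.964 and 1.62, and for Mir23b, at 2.48 and 1.04.

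Mir375 dominated the islet and neuroendocrine miRNAs, a list of 21 genes known from islet, pituitary, sensory and neuronal cells. It made up 88.5% of the counts of the list in replicate 1 and 91.4% in replicate 2. Mir375 was chosen with its level known, and 10 of the 21 genes share bases with other miRNA genes. The counts of those 10 can be too low, so the part of Mir375 in the list can be too high. The other 20 genes together reached 8115 CPM in replicate 1 and 5098 CPM in replicate 2. Mir375 alone, at 62443 and 54040 CPM, had 7.69 and 10.6 counts for each of theirs. Of the 20 other genes, 14 had at least 10 counts in each library. At the low end, Mir124a-1, Mir124a-2, Mir124a-3 and Mir9-2 had no counts in either library. All 4 share bases with other miRNA genes, so that a count of 0 sets no upper limit on their level. Mir9-1 had 0 and 2 counts and Mir9-3 had 1 and 0.

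The second gene of the list was Mir7b, of the miR-7 family that is abundant in islets and pituitary. It had 8648 counts in replicate 1 and 5355 in replicate 2, so that Mir375 had 18.7 and 23.1 counts for each of them. Its relatives Mir7-1, with 654 and 382 counts, and Mir7-2, with 187 and 99, were lower, with the limit on shared reads given above. All 3 were higher in replicate 1, at log2 ratios of -0.48 (interval -0.53 to -0.43), -0.56 (-0.75 to -0.38) and -0.70 (-1.07 to -0.34). The interval of Mir375 lies above each of these, so these 2 libraries differed less in Mir375 than in the miR-7 genes.

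Mir132 and Mir212, neighbours that respond to cAMP and neuronal activity, differed most within the list. Mir132 had 5738 counts in replicate 1 against 1908 in replicate 2 (log2 ratio -1.37, interval -1.45 to -1.30). Mir212 had 165 against 52 counts (log2 ratio -1.44, interval -1.93 to -0.99). Mir375 had 28.2 counts for each count of Mir132 in replicate 1 and 64.9 in replicate 2. The sensory-organ cluster was led by Mir182 with 2145 and 1411 counts (log2 ratio -0.39) and Mir183 with 1457 and 946 (-0.41). Both were higher in replicate 1, whereas Mir96, with 75 and 45 counts, did not pass (-0.52, with 0.0836 as adjusted p from the exact test). The neuronal Mir137, with 1239 and 914 counts, was higher in replicate 1 at a ratio of -0.22 (-0.35 to -0.10), an interval that overlaps that of Mir375.

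The remaining detected members were low and did not pass the test. Mir129-2 had 404 and 309 counts and Mir129-1 had 52 and 44, with the limit on shared reads given above. Mir204, made in beta cells and pigment epithelium, had 130 and 84, with a log2 ratio of -0.41 and an adjusted p from the exact test of 0.0625. Mir184, a lens and islet miRNA, had 71 and 83, and Mir153, of neurosecretory cells, had 53 and 46. Over the list without Mir375, 8 of 14 genes tested were higher in replicate 1, 0 were higher in replicate 2 and 6 did not pass. Their median log2 ratio was -0.41, beside 0.01 over all genes tested, of which 32.4% were higher in replicate 1. The members are not independent, since several share a cluster or a sequence.

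**Figure D5:**
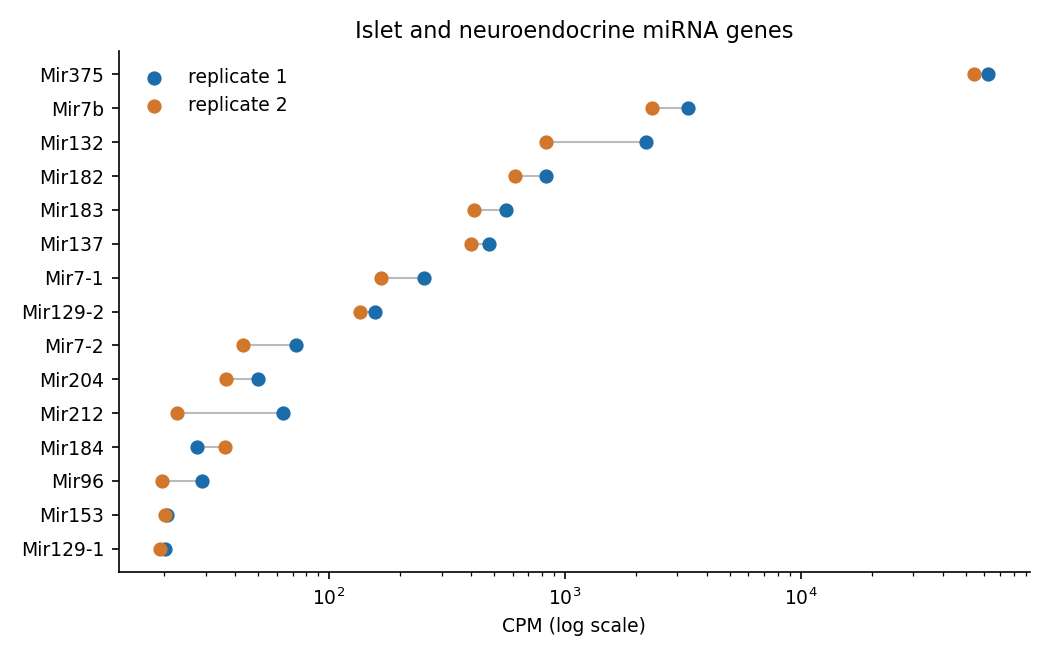
CPM (log scale) in each library of the 15 islet and neuroendocrine miRNA genes with at least 10 counts. Mir375 stands at 62443 and 54040 CPM, above Mir7b at 3339 and 2337, and most of the other genes also have their replicate 1 point to the right.

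Markers of other tissues were summed in fixed lists. Mir375 held ranks 4 and 3, so nearly any list would be low beside it. The pancreatic acinar list, whose 4 members accompany the islet in pancreas tissue, had 5 counts in replicate 1, 4 of them from Mir217 and 1 from Mir216a. It had 0 in replicate 2, which allows up to 1.31 CPM, and Mir216b and Mir216c had no count in either library. The 4 acinar genes were at or near 0 in both libraries. The tissue source of the Mir375 counts was not tested.

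The surface epithelial list of 7 genes summed to 1192 CPM in replicate 1 and 1871 CPM in replicate 2. Mir203, a skin miRNA, gave most of it, with 2972 and 3706 counts (ranks 73 and 63 of all miRNA genes). Mir200c had 65 and 452 counts and Mir200b 19 and 73. Of the 5 members tested, 4 were higher in replicate 2, as were 30.2% of all genes tested, and 1 did not pass, while Mir375 was higher in replicate 1. The member that did not pass was Mir429, with 19 and 8 counts (log2 ratio -0.99, interval -2.43 to 0.22). Mir375 had 52.4 counts for each count of this list in replicate 1 and 28.9 in replicate 2. The list of gut and kidney epithelium summed to 1527 and 2175 CPM. Nearly all of it came from Mir31, with 3800 and 4900 counts (ranks 65 and 56). Mir192 had 85 and 23 counts and Mir194-2 had 59 and 59.

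The vascular and blood list differed more between the libraries than Mir375 did, and in the same direction. It summed to 66599 CPM in replicate 1 and 34826 CPM in replicate 2, from Mir126a with 167712 and 76549 counts. The erythroid Mir451a had 1916 and 799 counts (log2 ratio -1.05). The lymphocyte miRNA Mir150 had 1384 and 1194 (log2 ratio 0.00, interval -0.11 to 0.11). Of the 7 members tested, 4 were higher in replicate 1, beside 32.4% of all genes tested, 0 were higher in replicate 2 and 3 did not pass. These 3 were Mir150, Mir486 (183 and 187 counts, log2 ratio 0.24) and Mir142 (1032 and 918 counts, log2 ratio 0.05). The part of cell makeup in the difference of Mir375 was not tested.

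Mir26b was the only other miRNA gene within 1 Mb of Mir375 that had a count. It lies 506264 bases away, on the plus strand at 74394310 to 74394394. With 48015 and 52882 counts it was abundant too, at 1.85% and 2.31% of counts. It was higher in replicate 2, with a log2 ratio of 0.35 (0.34 to 0.37), where Mir375 was lower. The other 3 annotated miRNA genes in the window, Mir1928, Gm25035 and Gm27943, had 0 counts in both libraries.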

How the data were processed

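Raw counts of reads per miRNA gene were deposited for each library, with strand ignored and for each strand, on mm10 with GENCODE M21, per the deposited notes. The labels give a size range under 30. Which aligner and counter made them is not given in the sources used here. The build is of C57BL/6J, so reads of CAST/EiJ alleles may be missing. The 4 rows that name no gene were left out of totals: unmapped reads (40.6% and 29.8% in replicates 1 and 2), reads aligned to several places (24.0% and 28.0%), reads in no gene (8.94% and 9.44%) and ambiguous reads (2 and 1 reads). All 2202 identifiers matched GENCODE M21. The first stranded column was taken as own strand, by its position, in both libraries.

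CPM and shares use own-strand totals. Libraries were compared across genes with a summed count of at least 20 by a two-sided exact conditional binomial test, with TMM factors of edgeR 4.0.16 (1.01 and 0.987), Benjamini-Hochberg adjustment over all 367 genes, a threshold of 0.05 and a prior count of 0.5 for log2 ratios. The script was tested on simulated counts with counting error as their only spread. That check does not cover further spread between libraries. Alternatives used DESeq2 1.42.0 size factors, total counts, other minimums (none, 200), a prior count of 5, strand-ignored counts, other denominators and the omission of genes that share 18 bases of hairpin. Intervals cover counting error only.

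Mir375 and the 5 lists were chosen with earlier results of these data known. Genes named are the 12 most abundant, the 6 nearest to Mir375 in level, its neighbours in rank, islet list members with at least 10 counts in a library, the top 3 of each other list and miRNA genes with a count within 1 Mb. Mir9-1, Mir9-2, Mir9-3, the Mir124a genes, Mir216b, Mir216c, Mir208b, Mir1928, Gm25035 and Gm27943 were named after their values were seen. So were Mirlet7a-1, Mir429, Mir486 and Mir142. RefSeq mature sequences matched 18 of the 21 islet list genes. Mir486b had no match in the annotation.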

Additional observations from a re-analysis of the deposited data

Results flagged for a closer look

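Reads that align to several places, a class outside the gene counts, made up 24.0% of the reads of replicate 1 and 28.0% of replicate 2 (2357429 and 1958627 reads). They are given here because the gene comparisons do not use them, and their number does not show whether they hold miRNA. Which miRNAs they belong to cannot be read from the tables. Mir375 shares no 18 bases of its hairpin with another miRNA gene, while 10 of the 21 islet and neuroendocrine genes do.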

How the results depend on the processing

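The share of Mir375 depended on what it was divided by. Its mean of 5.82% was 2.65% of all mapped reads, 9.77% without genes that share 18 bases, 8.10% without the let-7 family and 6.73% with strand-ignored counts. The last of these drops Mir126a and Mir378a, and leaving out a replicate gave 5.40% to 6.24%. The mean rank of 3.5 became 1.5 among genes that share no 18 bases (ranks 2 and 1). Leaving out the genes that share bases does not restore any of their reads that align to several places. The log2 ratio of Mir375 stayed between -0.30 and -0.15 over 7 alternatives and passed the exact test in each. Its lowest value came with no minimum count, where the median over genes was -0.10. Genes called numbered 169 to 230, but the number tested changed too, and the share called varied widely. It was 230 of 367 in the main setting, 219 of 724 with no minimum count and 181 of 229 with a minimum of 200. With strand-ignored counts the islet list summed to 74764 CPM in place of 64849, and the vascular list to 697 CPM in place of 50712. Of the other named genes, Mir204 passed the test under 4 alternatives (log2 ratio -0.55 to -0.44), Mir129-2 with no minimum count (-0.30) and Mir96 without genes that share 18 bases (-0.60). The cause of these 3 was not tested. No gene that passed changed direction, while Mir150 and Mir153, which passed in none of the alternatives that tested them, changed sign (from 0.00 to -0.13 and from 0.01 to -0.12 at the lowest). No paired analysis was possible because the labels give a single group. Counting error set a 95% interval of -0.18 to -0.16 for the log2 ratio of Mir375 and of -1.09 to 0.03 for that of Mir96.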

Other observations

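Detected miRNA genes with hairpins as rich in CG dinucleotides as that of Mir375 numbered 9 of the 339 genes with at least 10 counts in each library (2.65%). This is near the 3.41% over all annotated hairpins. After Mir375 at 58242 ± 5942 CPM came Mir341, of the imprinted Dlk1-Dio3 region, at 815 ± 271 CPM, at rank 89, and Mir760 at 107 ± 12.8 CPM (SD, n = 2 each). The other 6 (Mir8112, Gm23450, Mir1247, Mir6538, Mir219a-1 and Mir5130) lay between 8.93 and 30.1 CPM. Mir341, at a log2 ratio of 0.73, and Mir760, at 0.28, were higher in replicate 2 in the exact test, where Mir375 was lower. These genes were named after their values were seen, and the longer hairpins among them have more room for CG.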
